A study of Mus musculus with 4 samples.

Results

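The genes described here encode the subunits of the 5 complexes of oxidative phosphorylation. They were chosen by name: a probe set was taken if its single gene symbol began with Nduf (complex I), Uqcr (complex III), Cox4 to Cox8 (complex IV) or Atp5 (complex V), or was Sdha, Sdhb, Sdhc or Sdhd (complex II). This gave 179 of 45037 probe sets and 90 of 18193 genes. The rule uses the symbol alone. Complex I had 36 genes, complex II 4, complex III 8, complex IV 17 and complex V 17. The other 8 of the 90 are Ndufaf genes, which encode assembly factors of complex I rather than subunits and are counted apart.

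Whole kidneys of male C57Bl/6 mice were measured in 4 groups: Tet2KO mice after ischemia-reperfusion, Tet2KO mice after sham surgery, wild-type mice after ischemia-reperfusion and wild-type mice after sham surgery. The ischemia lasted 60 min and the reperfusion 24 h. Each group was 1 Affymetrix array, hybridised with RNA pooled from 3 mice. The labels give the genotype as Tet2KO without naming the allele, and the age of the mice is not given in the sources used here. With 1 array per group there is no spread between mice and no test, and every difference below describes these 4 arrays, whose small number sets its precision.

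The Tet2KO groups are called knockout-labelled below. The Tet2 probe set of higher signal had log2 signals of 8.60 in knockout-labelled ischemia-reperfusion and 10.25 in knockout-labelled sham, against 9.30 in wild-type ischemia-reperfusion and 9.84 in wild-type sham. The other Tet2 probe set read 8.74 in knockout-labelled ischemia-reperfusion and 9.87 in knockout-labelled sham, against 9.16 in wild-type ischemia-reperfusion and 9.96 in wild-type sham. Between the sham arrays the log2 ratio of knockout-labelled over wild type was 0.41 for the first probe set and -0.09 for the other, and where they lie relative to the deletion was not known. Tissue identity was checked on 17 proximal tubule markers, all of which were at or over the detection floor in all 4 arrays. Across all probe sets the correlation between arrays was lowest for knockout-labelled ischemia-reperfusion against its own sham (r = 0.963) and highest for the pair of sham arrays (r = 0.993).

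Oxidative phosphorylation makes most of the ATP that kidney tubules spend on reabsorption. Complex I (NADH dehydrogenase) and complex II (succinate dehydrogenase) pass electrons to ubiquinone, complex III passes them to cytochrome c, and complex IV (cytochrome c oxidase) hands them to oxygen. Complexes I, III and IV pump protons across the inner mitochondrial membrane, and complex V (ATP synthase) uses their return to make ATP. Most subunits are encoded in the nucleus and imported, and a small number of core subunits are encoded in the mitochondrial genome. The mitochondrially encoded subunits were not analysed here.

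The promoters of a few members are printed first, because the nuclear genes of these complexes share a small set of known regulators. Members were matched by gene identifier to a RefSeq promoter table of build GRCm38.p6, which gives 250 bases before and 50 bases after the start of transcription; 74 of the 90 genes matched. The NRF1, ETS, estrogen-related receptor and YY1 motifs were searched on both strands: the NRF1 site GCGCANGCG, the ETS site CCGGAAG read by the factor GABP, the estrogen-related receptor site TCAAGGTCA and the YY1 site AAGATGGC. In the lines below capitals mark every match, all else is in lower case, and no match of one motif overlaps a match of another. Sdha, Sdhb and Sdhd stand for complex II, Ndufa6 for the strongest contrast between the pairs among accessory subunits, and Cox8b with Cox8a for a tissue isoform beside its widely expressed counterpart.

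Sdha, chr13:74350191-74350490, minus strand: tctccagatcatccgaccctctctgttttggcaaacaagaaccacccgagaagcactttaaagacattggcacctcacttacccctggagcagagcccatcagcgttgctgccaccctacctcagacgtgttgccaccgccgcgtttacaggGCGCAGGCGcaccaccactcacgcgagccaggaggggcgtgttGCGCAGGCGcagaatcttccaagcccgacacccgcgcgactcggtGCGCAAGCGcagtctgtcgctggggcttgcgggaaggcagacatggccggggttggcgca
Sdhb, chr4:140961021-140961320, plus strand: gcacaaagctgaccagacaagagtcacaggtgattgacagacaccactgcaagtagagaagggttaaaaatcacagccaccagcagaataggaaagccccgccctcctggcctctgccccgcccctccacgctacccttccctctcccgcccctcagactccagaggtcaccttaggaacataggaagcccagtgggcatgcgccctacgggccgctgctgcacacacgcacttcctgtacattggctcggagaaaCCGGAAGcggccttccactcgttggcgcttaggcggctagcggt
Sdhd, chr9:50603800-50604099, minus strand: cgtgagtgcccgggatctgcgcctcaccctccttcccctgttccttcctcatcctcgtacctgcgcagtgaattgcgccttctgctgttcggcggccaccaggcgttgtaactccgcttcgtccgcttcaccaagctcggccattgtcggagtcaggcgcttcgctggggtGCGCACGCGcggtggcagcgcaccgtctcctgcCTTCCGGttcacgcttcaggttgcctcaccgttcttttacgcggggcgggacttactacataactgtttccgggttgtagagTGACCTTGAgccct
Ndufa6, chr15:82354242-82354541, minus strand: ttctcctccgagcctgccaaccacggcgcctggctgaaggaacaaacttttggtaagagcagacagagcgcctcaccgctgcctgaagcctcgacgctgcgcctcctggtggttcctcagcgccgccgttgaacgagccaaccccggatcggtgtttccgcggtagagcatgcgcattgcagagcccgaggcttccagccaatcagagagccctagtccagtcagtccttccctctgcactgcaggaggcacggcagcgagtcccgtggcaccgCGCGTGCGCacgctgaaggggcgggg
Cox8b, chr7:140900397-140900696, minus strand: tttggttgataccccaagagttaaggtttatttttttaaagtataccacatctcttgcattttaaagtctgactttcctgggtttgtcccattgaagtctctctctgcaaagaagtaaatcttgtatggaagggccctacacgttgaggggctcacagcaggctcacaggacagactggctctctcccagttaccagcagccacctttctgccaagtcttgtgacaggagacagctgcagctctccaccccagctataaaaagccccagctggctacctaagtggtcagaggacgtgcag
Cox8a, chr19:7217567-7217866, minus strand: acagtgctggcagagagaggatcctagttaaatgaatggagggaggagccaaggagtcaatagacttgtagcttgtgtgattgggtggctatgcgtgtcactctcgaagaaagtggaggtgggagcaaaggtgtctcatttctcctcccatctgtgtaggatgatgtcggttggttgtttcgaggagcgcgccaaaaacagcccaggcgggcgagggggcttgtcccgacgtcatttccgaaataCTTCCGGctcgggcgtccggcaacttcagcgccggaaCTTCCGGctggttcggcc

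Sdha carried 3 NRF1 matches, Sdhd 1 NRF1, 1 ETS and 1 estrogen-related receptor match, Sdhb 1 ETS match and Ndufa6 1 NRF1 match. Cox8a carried 2 ETS matches and Cox8b 0 matches to any of the motifs. Over the matched genes the NRF1 site was found in 20 of 74 promoters (27.0%), against 9.63% of 17491 protein-coding promoters and 7.03% of all 27025 promoters in the table. The ETS site was found in 19 (25.7%), against 12.9% of protein-coding and 9.93% of all promoters. The YY1 site was found in 10 (13.5%), against 3.57% of protein-coding and 3.19% of all promoters, and the receptor site in 2 (2.70%), against 0.377% of protein-coding and 0.466% of all promoters. At least 1 of the motifs was present in 41 of the 74 promoters (55.4%), against 23.1% of protein-coding and 18.2% of all promoters. By complex, 1 or more of the motifs was present in 16 of 32 promoters of complex I, 3 of 3 of complex II, 3 of 5 of complex III, 3 of 12 of complex IV and 12 of 15 of complex V. The share of complex IV (25%) was near that of protein-coding promoters. The median content of G and C was 58.8% in the members' promoters, against 56.3% in protein-coding promoters. A match is a description of letters in this window and says nothing of binding in these kidneys.

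Signals are on the log2 scale, so a difference of 1 is a factor of 2. A gene was read from its probe set of highest mean signal, and signals of different genes were not compared with each other. The detection floor was a log2 signal of 5.72; lower signals were set to it, and a gene counted as measured in a comparison if 1 or more of the arrays compared reached it. Of the 90 genes, 87 were at or over the floor in all 4 arrays, 2 in some arrays (Cox8b and Ndufb4) and 1 in none (Cox7b2, an isoform of subunit VIIb). Among the 82 subunit genes 70 had a mean log2 signal over 11, so most members were measured from bright probe sets. As a measure of error, probe sets of the same member gene differed in log2 ratio with an SD of 0.257 in the knockout-labelled pair and 0.200 in the wild-type pair, over 124 probe sets of 47 genes. That SD holds no difference between mice.

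In the knockout-labelled pair nearly all subunit genes were lower after ischemia-reperfusion than after sham, by modest amounts. The median log2 ratio of 81 measured subunits was -0.43, and 76 of the 81 were below 0, against 51.7% of 13600 measured genes. At 1.5-fold or more 20 of 81 were lower (24.7%), against 14.5% of all genes. At 2-fold or more only Ndufs1 and Cox7a1 were lower (2.47%), against 6.89% of all genes, and only Cox8b was higher, against 6.06%. The median of all genes was -0.02, and the quartiles of the subunits' ratios were -0.58 and -0.26.

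The wild-type pair showed the same direction at a smaller size. The median over 81 subunits was -0.14, and 70 of 81 were below 0, against 47.3% of 13531 genes. Cox7a1 and Cox8b were lower at 1.5-fold or more, against 6.29% of all genes, and both were also past 2-fold, against 2.18%. Cox6b2 alone was higher at 2-fold, against 2.06%. The quartiles over the subunits were -0.23 and -0.04, beside an SD of 0.200 between probe sets of a gene. For every count below 0 further on, the share over all genes is 51.7% in the knockout-labelled pair and 47.3% in the wild-type pair.

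The sham arrays of both genotype labels were close to each other for these genes. The median of knockout-labelled sham over wild-type sham was -0.01, and the quartiles over the subunits were -0.05 and 0.04. Cox8b was the single subunit lower at 2-fold or more, against 0.846% of all genes. Ndufs5 and Cox6a2 were higher at 1.5-fold or more, against 1.02%, and 0 subunits were higher at 2-fold.

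After ischemia-reperfusion the knockout-labelled array was lower than the wild-type array for 73 of 81 subunits, against 51.1% of all genes, with a median of -0.29. At 1.5-fold or more 11 of 81 were lower, against 10.5% of all genes, a share near the background. Cox8b was higher at 2-fold, against 3.68%. The difference of the responses, knockout-labelled minus wild type, was below 0 for 76 of 81 subunits, against 54% of all genes, with a median of -0.28. At 1.5-fold or more 13 of 81 were below, against 12.5% of all genes. Both comparisons are set beside other bright genes further below. These comparisons all use the knockout-labelled ischemia-reperfusion array, so they are not independent of the knockout-labelled response.

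The pairs of each genotype label share no array. Of the 81 subunits 68 were lower after ischemia-reperfusion in both pairs, and 76 had a lower ratio in the knockout-labelled pair than in the wild-type pair. Across 78 subunit genes, leaving out Cox6a2, Cox7a1 and Cox8b, the ratios of both pairs correlated with Pearson's r = 0.45 and Spearman's rho = 0.46. With those genes r was -0.32 and rho 0.42 over 81 genes, so Pearson's r turned with 3 genes, of which Cox8b lay farthest out. Genes are not independent replicates, and probe sets of the same transcripts share the arrays they were read on.

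**Figure D1:**
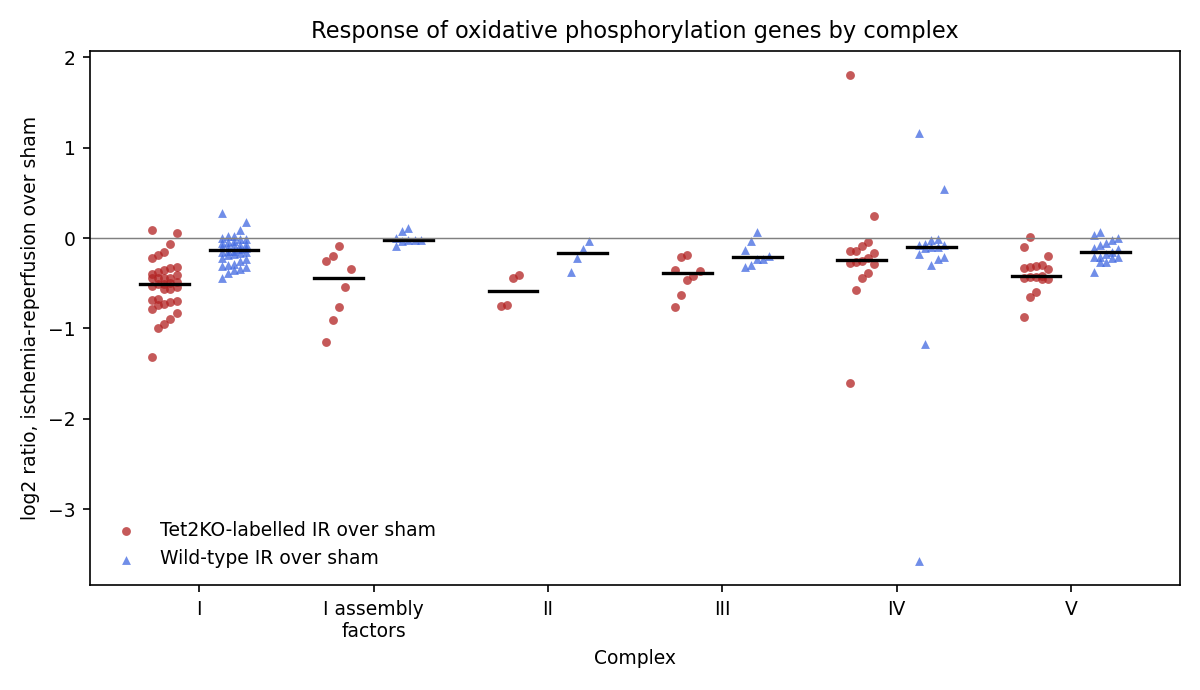
Log2 ratio of ischemia-reperfusion over sham (vertical axis) for each measured gene, by complex (horizontal axis), with red circles for the knockout-labelled pair, blue triangles for the wild-type pair and a black bar at each median. The knockout-labelled medians lie between -0.24 for complex IV and -0.59 for complex II and the wild-type medians between -0.02 for the assembly factors and -0.21 for complex III, and Cox8b gives the points at 1.81 and -3.58.

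Complex I is the largest complex, an L-shaped enzyme whose matrix arm holds the NADH-binding N module and the ubiquinone-facing Q module. In the knockout-labelled pair 34 of its 36 genes were below 0 after ischemia-reperfusion, with a median of -0.50. At 1.5-fold or more 12 of the 36 were lower (33.3%), against 14.5% of all genes and 28.3% of the other genes with a mean log2 signal over 11. In the wild-type pair 30 of 36 were below 0, with a median of -0.13 and 0 lower at 1.5-fold. The sham arrays differed by a median of -0.0035.

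Ndufs1, the largest core subunit and a carrier of iron-sulphur clusters, had log2 signals of 11.01 in knockout-labelled ischemia-reperfusion and 12.33 in knockout-labelled sham, against 11.97 in wild-type ischemia-reperfusion and 12.19 in wild-type sham. The first of these arrays was the low one. The ratio was -1.32 in the knockout-labelled pair, 2.50-fold lower, and -0.22 in the wild-type pair.

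Ndufa6, an accessory subunit of the LYR-motif family, read 11.99 in knockout-labelled ischemia-reperfusion, 12.99 in knockout-labelled sham, 12.95 in wild-type ischemia-reperfusion and 13.01 in wild-type sham. Here too a single array was low, with ratios of -0.998 in the knockout-labelled pair and -0.07 in the wild-type pair. Ndufs8, a core iron-sulphur subunit of the Q module, read 12.20 in knockout-labelled ischemia-reperfusion and 13.16 in knockout-labelled sham, against 12.60 in wild-type ischemia-reperfusion and 13.04 in wild-type sham. Both of its ischemia-reperfusion arrays were below both sham arrays, with ratios of -0.96 in the knockout-labelled pair and -0.44 in the wild-type pair.

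By module, the knockout-labelled medians were -0.50 over 9 N-module genes, -0.73 over 5 Q-module genes and -0.44 over 19 membrane-arm genes. The wild-type medians were -0.15 for the N module, -0.17 for the Q module and -0.12 for the membrane arm. The 6 nuclear core subunits, which carry the redox centres or line the quinone site, had a knockout-labelled median of -0.73, and the 28 accessory subunits had -0.47. In the wild-type pair the median was -0.18 for the core and -0.11 for the accessory subunits. Ndufv1, the flavoprotein that takes electrons from NADH, had -0.49 in the knockout-labelled pair and -0.19 in the wild-type pair. Among the core subunits Ndufs7 had the highest ratio in the knockout-labelled pair, -0.31, and it was 0.28 in the wild-type pair. The dimmer probe set of Ndufs7, with a mean log2 signal of 12.08, gave -0.68 in the knockout-labelled pair and -0.06 in the wild-type pair. Its rank and its wild-type direction thus rested on the probe set used.

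The highest ratios of complex I in the knockout-labelled pair belonged to Ndufa4l2 (0.09), Ndufb1 (0.05) and Ndufa2 (-0.07). Ndufa2, an N-module accessory subunit, kept log2 signals of 12.91 in knockout-labelled ischemia-reperfusion and 12.98 in knockout-labelled sham, against 12.96 in both wild-type arrays. Its range over the arrays was smaller than the SD between probe sets. Ndufa4 and Ndufa4l2 carry a complex I name, though Ndufa4 is now counted with cytochrome oxidase and Ndufa4l2 is its paralogue, known as a target of hypoxia signalling. Ndufa4 had -0.51 in the knockout-labelled pair and -0.10 in the wild-type pair, and Ndufa4l2 had 0.09 in the knockout-labelled pair and -0.32 in the wild-type pair.

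Probe sets disagreed for 2 genes of complex I. For Ndufab1, the mitochondrial acyl carrier protein, all 5 probe sets were below 0 in the knockout-labelled pair, while their wild-type ratios lay between -0.67 and 0.73, with -0.10 for the brightest. For Ndufs4, an N-module accessory subunit, the probe sets over the floor gave knockout-labelled ratios between -1.55 and -0.20, and the brightest gave -0.50. Ndufs5, an accessory subunit, was read from a dim probe set whose sham arrays already differed by 0.92, the highest such ratio among the members. Ndufb4 was also read from a dim probe set, with 5.67 in knockout-labelled ischemia-reperfusion, just under the floor.

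The 8 Ndufaf genes, which help to build complex I, had a knockout-labelled median of -0.45 with 8 of 8 below 0, and a wild-type median of -0.02 with 5 of 8 below 0. Ndufaf3, which takes part in building the Q module, read 8.66 in knockout-labelled ischemia-reperfusion and 9.81 in knockout-labelled sham, against 9.81 in wild-type ischemia-reperfusion and 9.83 in wild-type sham. It was 2.22-fold lower in the single array that differed. Ndufaf6 followed with -0.90 in the knockout-labelled pair and 0.01 in the wild-type pair, and Ndufaf4 was the highest of the 8 with -0.09 in the knockout-labelled pair and 0.08 in the wild-type pair. The dimmer probe set of Ndufaf4, with a mean log2 signal of 10.29, gave -0.70 in the knockout-labelled pair and 0.05 in the wild-type pair. The knockout-labelled rank of Ndufaf4 thus rested on the probe set used.

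**Figure D2:**
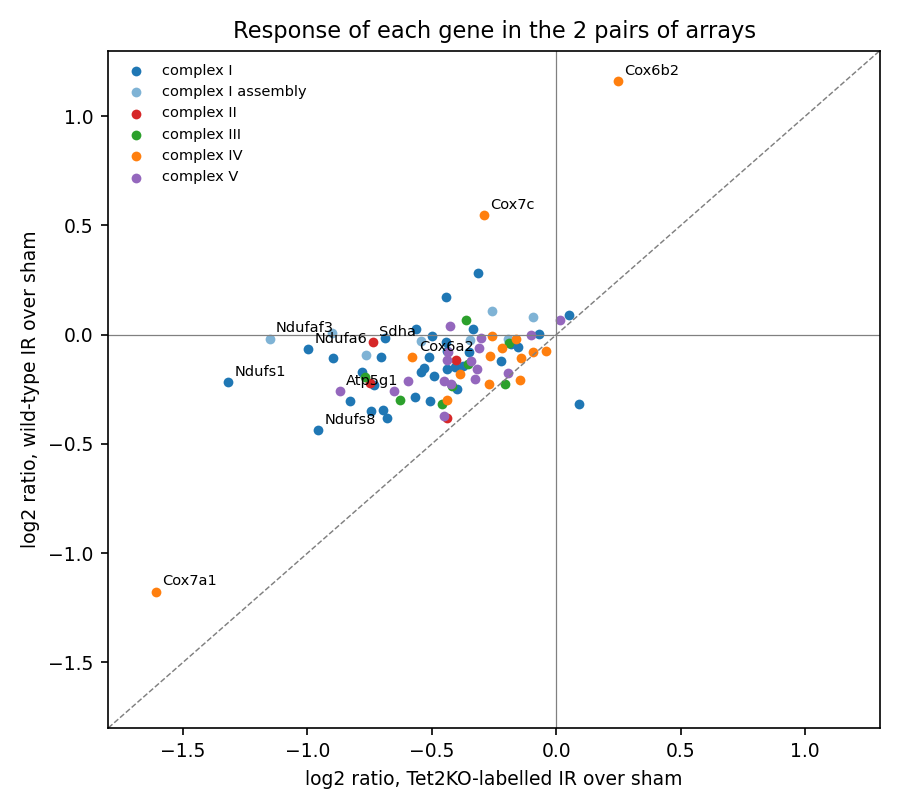
Log2 ratio of ischemia-reperfusion over sham in the knockout-labelled pair (horizontal axis) and in the wild-type pair (vertical axis), 1 point per gene, coloured by complex, with a dashed line where both are equal; Cox8b, at 1.81 and -3.58, lies outside the axes. Most points lie left of the dashed line, as for Ndufs1 at -1.32 and -0.22, while Cox7a1 is low on both axes at -1.61 and -1.18.

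Complex II had 4 genes, all below 0 in both pairs, with medians of -0.59 in the knockout-labelled pair and -0.17 in the wild-type pair. It also takes part in the citric acid cycle. Sdha, the flavoprotein that oxidises succinate, read 11.98 in knockout-labelled ischemia-reperfusion and 12.72 in knockout-labelled sham, against 12.62 in wild-type ischemia-reperfusion and 12.65 in wild-type sham. Sdhb, the iron-sulphur subunit, read 12.52 in knockout-labelled ischemia-reperfusion and 13.27 in knockout-labelled sham, against 13.03 in wild-type ischemia-reperfusion and 13.25 in wild-type sham. For both catalytic subunits the knockout-labelled ischemia-reperfusion array was the lowest.

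The ratios in the knockout-labelled pair were -0.74 for Sdha (1.67-fold lower) and -0.75 for Sdhb (1.68-fold lower), against -0.03 for Sdha and -0.22 for Sdhb in the wild-type pair. The membrane anchors Sdhc and Sdhd had smaller ratios in the knockout-labelled pair, -0.44 and -0.40. Sdhc read 11.78 in knockout-labelled ischemia-reperfusion and 12.22 in knockout-labelled sham, against 11.76 in wild-type ischemia-reperfusion and 12.14 in wild-type sham, so both injured arrays lay below both sham arrays. Its wild-type ratio was -0.38. Sdhd read 11.97 in knockout-labelled ischemia-reperfusion and 12.37 in knockout-labelled sham, against 12.44 in wild-type ischemia-reperfusion and 12.55 in wild-type sham, with a wild-type ratio of -0.12.

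Complex III had 8 genes, with medians of -0.39 in the knockout-labelled pair (8 of 8 below 0) and -0.21 in the wild-type pair (7 of 8 below 0). Uqcrfs1, the Rieske iron-sulphur protein that takes part in electron transfer, read 12.55 in knockout-labelled ischemia-reperfusion and 13.17 in knockout-labelled sham, against 12.93 in wild-type ischemia-reperfusion and 13.22 in wild-type sham. Both ischemia-reperfusion arrays were below both sham arrays, with ratios of -0.63 in the knockout-labelled pair and -0.30 in the wild-type pair. The core protein Uqcrc2 had -0.77 in the knockout-labelled pair and -0.19 in the wild-type pair. Its partner Uqcrc1 had -0.46 in the knockout-labelled pair and -0.32 in the wild-type pair, and its ischemia-reperfusion arrays of both labels read 12.19.

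The 5 small subunits of complex III had a knockout-labelled median of -0.35 and a wild-type median of -0.14. In the knockout-labelled pair the hinge protein Uqcrh had -0.35, Uqcrq -0.21 and Uqcr10 -0.19, against -0.14 for Uqcrh, -0.23 for Uqcrq and -0.04 for Uqcr10 in the wild-type pair. For Uqcr10 the brightest probe set, with a mean log2 signal of 13.04, gave -0.19 in the knockout-labelled pair, while its probe sets with means of 11.60 and 11.21 gave -0.96 and -0.99. Uqcrb, read from a probe set with a mean of 14.33, gave -0.36 in that pair, and its probe set with a mean of 12.30 gave -0.72.

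Complex IV had the smallest medians among the complexes, apart from its tissue isoforms. Several of its subunits exist in a widely expressed form and in a form of heart, skeletal muscle, brown fat or testis. Over 16 measured genes the median was -0.24 in the knockout-labelled pair and -0.10 in the wild-type pair. The 5 widely expressed isoforms (Cox4i1, Cox6a1, Cox6b1, Cox7a2 and Cox8a) had a median of -0.22 in the knockout-labelled pair, with 0 of them at 1.5-fold, and -0.08 in the wild-type pair.

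Cox8a, the widely expressed subunit VIII, read 12.82 in knockout-labelled ischemia-reperfusion and 13.27 in knockout-labelled sham, against 12.99 in wild-type ischemia-reperfusion and 13.28 in wild-type sham. It had the lowest ratio of these isoforms in the knockout-labelled pair, -0.44, and -0.30 in the wild-type pair. Cox6a1, the liver form of subunit VIa, was nearly level, with 14.48 in knockout-labelled ischemia-reperfusion and 14.52 in knockout-labelled sham, against 14.40 in wild-type ischemia-reperfusion and 14.48 in wild-type sham. The dimmer probe set of Cox6a1, with a mean log2 signal of 13.18, gave -0.23 in the knockout-labelled pair and -0.21 in the wild-type pair. In the knockout-labelled pair Cox4i1 had -0.15, Cox6b1 -0.26 and Cox7a2 -0.22, against -0.21 for Cox4i1, -0.01 for Cox6b1 and -0.06 for Cox7a2 in the wild-type pair. Cox7a2l, a relative of subunit VIIa that joins complexes III and IV, had -0.09 in the knockout-labelled pair and -0.08 in the wild-type pair.

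Among the tissue isoforms, Cox8b, the subunit VIII form of heart, skeletal muscle and brown fat, read 7.53 in knockout-labelled ischemia-reperfusion and 5.60 in knockout-labelled sham, against 5.69 in wild-type ischemia-reperfusion and 9.30 in wild-type sham. It was over the floor in one array of each pair, and those arrays had opposite treatments. It was at least 3.50-fold higher after ischemia-reperfusion in the knockout-labelled pair and at least 11.9-fold lower in the wild-type pair. Between the sham arrays it was at least 11.9-fold lower in the knockout-labelled one.

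Cox7a1, the heart and muscle form of subunit VIIa, read 7.25 in knockout-labelled ischemia-reperfusion and 8.85 in knockout-labelled sham, against 8.08 in wild-type ischemia-reperfusion and 9.26 in wild-type sham. Both ischemia-reperfusion arrays were below both sham arrays. The ratios were -1.61 (3.05-fold lower) in the knockout-labelled pair and -1.18 (2.26-fold lower) in the wild-type pair, the lowest of all measured members in the first of these pairs.

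Cox6a2, the heart and muscle form of subunit VIa, read 6.58 in knockout-labelled ischemia-reperfusion and 7.15 in knockout-labelled sham, against 6.44 in wild-type ischemia-reperfusion and 6.55 in wild-type sham, so knockout-labelled sham was the high array. Cox6b2, the testis form of subunit VIb, read 7.04 in knockout-labelled ischemia-reperfusion and 6.79 in knockout-labelled sham, against 8.03 in wild-type ischemia-reperfusion and 6.87 in wild-type sham. Its ratio was 0.25 in the knockout-labelled pair and 1.16 (2.24-fold higher) in the wild-type pair. Cox4i2 stayed close to the floor, between 5.90 and 6.06, and Cox8c had -0.27 in the knockout-labelled pair and -0.23 in the wild-type pair.

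The fat genes Adipoq and Cidea were over the floor in the same arrays as Cox8b. Adipoq, the hormone adiponectin of fat cells, read 9.31 in knockout-labelled ischemia-reperfusion and 4.19 in knockout-labelled sham, against 4.46 in wild-type ischemia-reperfusion and 10.11 in wild-type sham. Cidea, a lipid droplet gene of brown fat, read 6.82 in knockout-labelled ischemia-reperfusion and 5.01 in knockout-labelled sham, against 5.03 in wild-type ischemia-reperfusion and 9.68 in wild-type sham. Ucp1, the uncoupling protein of brown fat, read 5.70 in knockout-labelled ischemia-reperfusion, just under the floor, and was over it in wild-type sham only, at 7.51. Of the other genes on both fat lists Cidec was over the floor in the same arrays as Cox8b, Retn, Plin4 and Ppargc1a were over it in all 4 arrays, and Lep, Elovl3 and Dio2 in none. Plin4, a lipid droplet gene of fat cells, read 8.65 in knockout-labelled ischemia-reperfusion and 5.78 in knockout-labelled sham, against 7.21 in wild-type ischemia-reperfusion and 7.39 in wild-type sham. The summed linear signal of 5 adipose genes was 1595 in knockout-labelled ischemia-reperfusion and 224 in knockout-labelled sham, against 335 in wild-type ischemia-reperfusion and 1561 in wild-type sham. For 5 brown fat genes the sum was 1240 in knockout-labelled ischemia-reperfusion and 1748 in knockout-labelled sham, against 1972 in wild-type ischemia-reperfusion and 3360 in wild-type sham, so that sum was lowest in knockout-labelled ischemia-reperfusion. This list holds Ppargc1a, which kidney also expresses and which made the largest part of the sum in every array. Ppargc1a read 9.98 in knockout-labelled ischemia-reperfusion and 10.65 in knockout-labelled sham, against 10.84 in wild-type ischemia-reperfusion and 11.16 in wild-type sham.

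The part of these cells in the Cox8b result was not tested. Of 10 skeletal muscle genes only Ckm was over the floor in all 4 arrays. Myh1, Myh2, Myh4, Tnnt3, Tnnc2 and Actn3 were below it in all 4. Acta1 (6.12) and Tnni2 (5.89) were over it in knockout-labelled ischemia-reperfusion only, and Mylpf in knockout-labelled sham (5.89) and wild-type ischemia-reperfusion (5.98). The summed signal of the list lay between 385 and 398. Of 5 testis genes 1 was over the floor in all arrays, with sums between 236 and 243. Of 5 heart and smooth muscle genes the summed signal was 4204 in knockout-labelled ischemia-reperfusion, 950 in knockout-labelled sham, 868 in wild-type ischemia-reperfusion and 1551 in wild-type sham. The heart genes of that list, Myh6 and Tnnt2, were below the floor in all 4 arrays. The smooth muscle genes Acta2, Myh11 and Tagln were over it in all 4. In these bulk samples fewer cells of a type and less RNA per cell cannot be told apart.

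**Figure D3:**
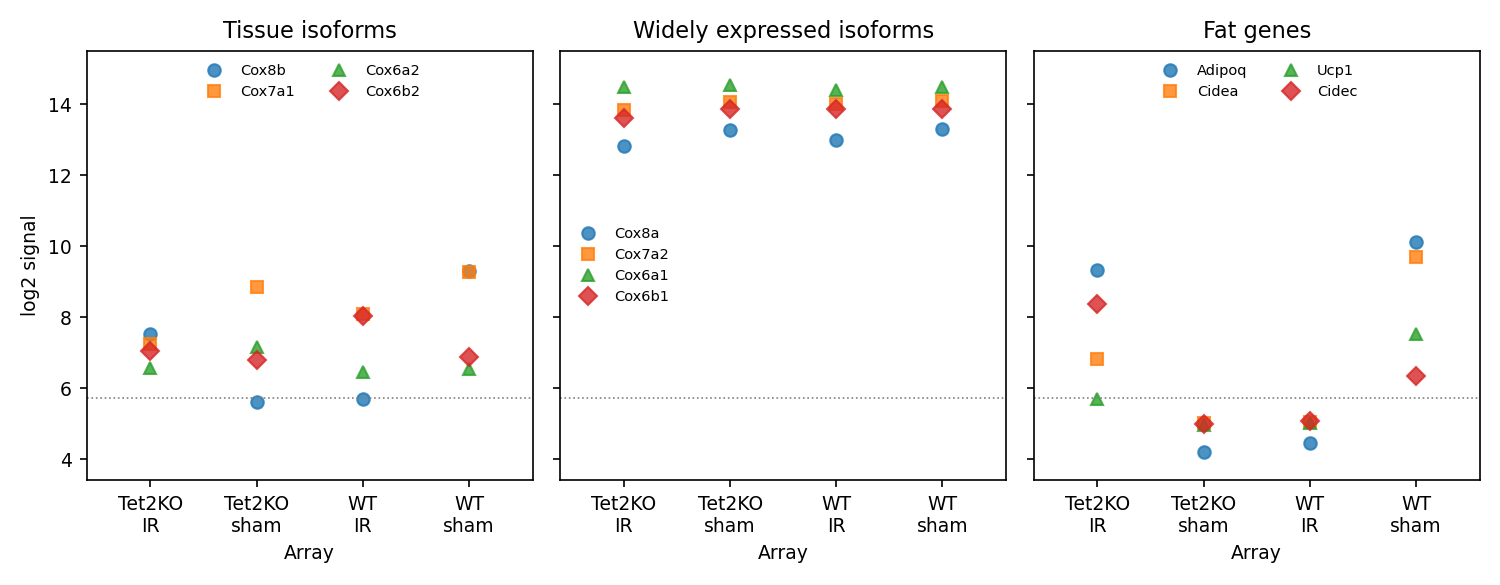
Log2 signal (vertical axis) in each of the 4 arrays (horizontal axis) of tissue isoforms of complex IV, of their widely expressed counterparts and of fat genes; the dotted line is the floor at 5.72. Cox8b is over the floor in knockout-labelled ischemia-reperfusion (7.53) and wild-type sham (9.30), as is Adipoq (9.31 and 10.11), while the widely expressed isoforms stay between 12.82 and 14.52.

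Complex V had 17 genes, with medians of -0.42 in the knockout-labelled pair (16 of 17 below 0) and -0.16 in the wild-type pair (15 of 17 below 0). Its soluble F1 part makes ATP while the c ring turns in the membrane, held by a peripheral stalk. In the F1 part the catalytic beta subunit Atp5b read 13.96 in knockout-labelled ischemia-reperfusion and 14.29 in knockout-labelled sham, against 14.08 in wild-type ischemia-reperfusion and 14.29 in wild-type sham. Both injured arrays were below both sham arrays, with ratios of -0.33 in the knockout-labelled pair and -0.20 in the wild-type pair. The alpha subunit Atp5a1 had -0.43 in the knockout-labelled pair and -0.08 in the wild-type pair. Its dim probe set, with a mean log2 signal of 6.95, ran the other way, with 0.34 in the knockout-labelled pair and -0.48 in the wild-type pair. Atp5d, the delta subunit, had the highest ratio of the complex, 0.02 in the knockout-labelled pair and 0.07 in the wild-type pair. The dimmer probe set of Atp5d, with a mean log2 signal of 12.59, gave 0.02 in the knockout-labelled pair and -0.37 in the wild-type pair. Its wild-type direction thus rested on the probe set used.

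The c ring is built from identical mature subunits encoded by 3 genes, and these did not share a ratio. Atp5g1 read 11.59 in knockout-labelled ischemia-reperfusion and 12.46 in knockout-labelled sham, against 12.19 in wild-type ischemia-reperfusion and 12.44 in wild-type sham. It was 1.83-fold lower in the knockout-labelled pair, the largest difference of complex V, with -0.26 in the wild-type pair. Atp5g2 read 11.63 in knockout-labelled ischemia-reperfusion and 12.06 in knockout-labelled sham, against 11.95 in wild-type ischemia-reperfusion and 11.91 in wild-type sham. Its ratio was -0.43 in the knockout-labelled pair and 0.04 in the wild-type pair. Atp5g3 was nearly level, with 13.93 in knockout-labelled ischemia-reperfusion and 14.04 in each of the other arrays.

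The peripheral stalk genes had a knockout-labelled median of -0.47 over 4 genes and a wild-type median of -0.17. Atp5o, which anchors the stalk to F1 and confers oligomycin sensitivity, had -0.65 in the knockout-labelled pair and -0.26 in the wild-type pair, and Atp5j, subunit F6, had -0.59 in the knockout-labelled pair and -0.21 in the wild-type pair. The 5 other membrane subunits had medians of -0.32 in the knockout-labelled pair and -0.17 in the wild-type pair, and Atp5k, subunit e, was the highest of them with -0.19 in the knockout-labelled pair and -0.17 in the wild-type pair. Atpif1, the inhibitor that blocks ATP hydrolysis by complex V, is not a member by name and had -0.68 in the knockout-labelled pair and -0.03 in the wild-type pair.

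Because most members are bright, they were set beside other bright genes. Of 70 subunits with a mean log2 signal over 11, 69 were below 0 in the knockout-labelled pair, against 774 of 1349 other genes of such signal (57.4%). The median was -0.44 for the subunits and -0.13 for the other genes. At 1.5-fold or more 18 of the 70 (25.7%) were lower, against 28.3% of the other bright genes, so that count was not above the level of bright genes at large. In the wild-type pair 63 of 70 subunits were below 0, against 48.9% of the other bright genes, with a median of -0.14 for the subunits and 0.01 for the other genes. Between the ischemia-reperfusion arrays 67 of 70 were below 0, against 62.2% of the other bright genes. At 1.5-fold or more 7 (10%) were lower there, against 21.65%. In the difference of responses 67 of 70 were below 0, against 62.4%, and 10 (14.3%) were lower at 1.5-fold or more, against 24.3%. Both of these 1.5-fold shares were below those of the other bright genes.

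The size of the ratio also moved with the signal of the probe set. For 39 genes with more than 1 probe set of mean log2 signal 10 or more, the dimmest of them had the lower ratio in 27 genes in the knockout-labelled pair, with a median of -0.48, against -0.35 for the brightest. In the wild-type pair this held for 24 genes, with a median of -0.16 for the dimmest, against -0.10 for the brightest. Among probe sets with a mean between 13 and 15 the knockout-labelled medians were -0.44 for complex I, -0.35 for complex III, -0.24 for complex IV and -0.38 for complex V. The smaller size of the complex IV ratios was present within this range too, which held 16 of its 21 bright probe sets. Signal was not matched within the range: the brightest mean was 14.47 in complex IV (Cox6a1) and 13.79 in complex I (Ndufa1). The range therefore cannot separate the complex from the signal. Saturation of bright probe sets was not tested.

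**Figure D4:**
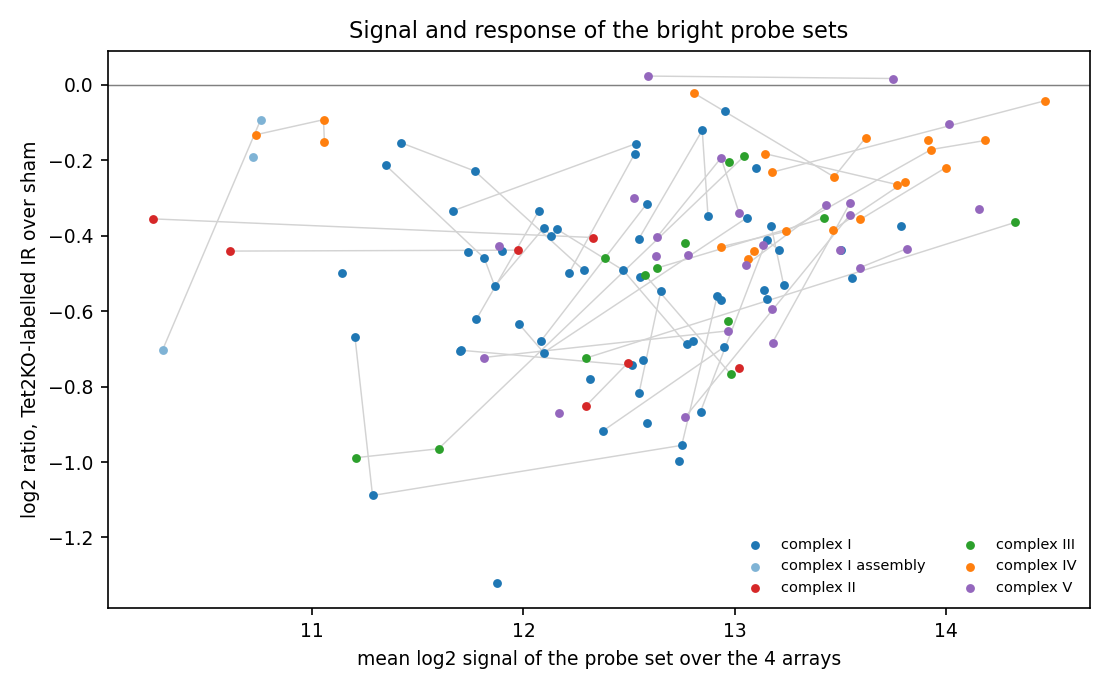
Mean log2 signal over the 4 arrays (horizontal axis) and log2 ratio of ischemia-reperfusion over sham in the knockout-labelled pair (vertical axis) of the subunit and assembly probe sets with a mean of 10 or more, coloured by complex, with grey lines joining probe sets of the same gene. Complex IV (orange) lies at high signal and close to 0, and in 27 of 39 genes the dimmest probe set is lower than the brightest.

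Other genes of mitochondrial respiration were read from lists of known function. Of 17 genes of the citric acid cycle and pyruvate dehydrogenase, 17 were below 0 in the knockout-labelled pair, against 51.7% of all genes. Their median was -0.34. At 1.5-fold or more 6 of the 17 were lower, against 14.5% of all genes and 28.3% of the other bright genes. In the wild-type pair 12 of 17 were below 0, against 47.3% of all genes, with a median of -0.09. Idh2, the NADP-linked isocitrate dehydrogenase, had -1.31 in the knockout-labelled pair and -0.43 in the wild-type pair. Mdh2, malate dehydrogenase, was nearly level, with -0.03 in the knockout-labelled pair and 0.06 in the wild-type pair.

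The electron-transferring flavoprotein, which delivers electrons from fatty acid oxidation to ubiquinone, was lower in the knockout-labelled pair. Etfa had -1.02 in the knockout-labelled pair and -0.18 in the wild-type pair, Etfb had -0.70 in the knockout-labelled pair and -0.07 in the wild-type pair, and the oxidoreductase Etfdh had -0.60 in the knockout-labelled pair and 0.20 in the wild-type pair. In the knockout-labelled pair cytochrome c itself (Cycs) had -0.06 and Cyc1, the cytochrome of complex III, had -0.24. Gpd2, the glycerol phosphate dehydrogenase of the inner membrane, was the only one of 7 measured carrier genes above 0 in that pair, with 0.42.

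Of 39 measured assembly factors with other names, 31 were below 0 in the knockout-labelled pair (median -0.30), against 51.7% of all genes. In the wild-type pair 14 were below 0 (median 0.10), against 47.3% of all genes. At 2-fold or more 4 of the 39 were lower in the knockout-labelled pair, against 6.89% of all genes: Acad9 and Tmem126b, which assemble complex I, Sdhaf4, which helps to mature Sdha, and Cox20, a factor of complex IV. Their ratios were -1.65, -1.16, -1.09 and -1.06, against -0.87, -0.40, -0.24 and -0.27 in the wild-type pair. Acad9 already differed between the sham arrays by -1.03.

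Regulators of mitochondrial biogenesis were mixed, with 12 of 17 below 0 in the knockout-labelled pair (median -0.31), against 51.7% of all genes. In the wild-type pair 7 of 17 were below 0 (median 0.13), against 47.3% of all genes. Ppargc1a, the coactivator PGC-1alpha, had -0.68 in the knockout-labelled pair and -0.32 in the wild-type pair. The estrogen-related receptors had -0.62 (Esrra), -0.87 (Esrrb) and -0.97 (Esrrg) in the knockout-labelled pair, and -0.16, -0.57 and -0.14 in the wild-type pair. Gabpa, the ETS factor whose site was searched above, had -0.69 in the knockout-labelled pair and -0.24 in the wild-type pair, and Nrf1 had 0.16 in the knockout-labelled pair and 0.32 in the wild-type pair. Pprc1, a relative of PGC-1alpha, was 2.23-fold higher in the knockout-labelled pair and 1.90-fold higher in the wild-type pair.

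For genes of the outer membrane and of protein import the median was 0.09 in both pairs over 12 genes. Below 0 were 6 of 12 in the knockout-labelled pair, against 51.7% of all genes, and 3 of 12 in the wild-type pair, against 47.3%. The import channel gene Tomm40 had 0.86 in the knockout-labelled pair and -0.20 in the wild-type pair, and the receptor Tomm20 had 0.41 in the knockout-labelled pair and 0.19 in the wild-type pair. The chaperone Hspe1 had -0.88 in the knockout-labelled pair and 0.10 in the wild-type pair.

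Markers of the tubule, whose cells hold many mitochondria, were lower by more than the subunits in the median of each list. All 17 proximal tubule markers were below 0 in the knockout-labelled pair, with a median of -1.40, and 15 of 17 in the wild-type pair, with a median of -0.51. Their summed linear signal was 79371 in knockout-labelled ischemia-reperfusion and 186414 in knockout-labelled sham, against 127641 in wild-type ischemia-reperfusion and 185768 in wild-type sham. The 11 markers of the thick ascending limb and distal tubule had medians of -2.22 in the knockout-labelled pair and -0.74 in the wild-type pair. Their sum was 25188 in knockout-labelled ischemia-reperfusion and 71653 in knockout-labelled sham, against 52875 in wild-type ischemia-reperfusion and 77384 in wild-type sham. The 9 collecting duct markers had medians of -0.71 in the knockout-labelled pair and -0.28 in the wild-type pair, with 7 of 9 below 0 in each pair. Above 0 were Aqp2 (0.18) and Slc26a4 (0.29) in the knockout-labelled pair, and Scnn1b (0.43) and Scnn1g (0.27) in the wild-type pair. Of 7 tubular injury genes 7 were above 0 in the knockout-labelled pair (median 3.88), against 6552 of 13600 measured genes. In the wild-type pair 6 were above 0 (median 2.28), against 7108 of 13531. The part of these markers in the subunits' ratios was not tested.

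**Figure D5:**
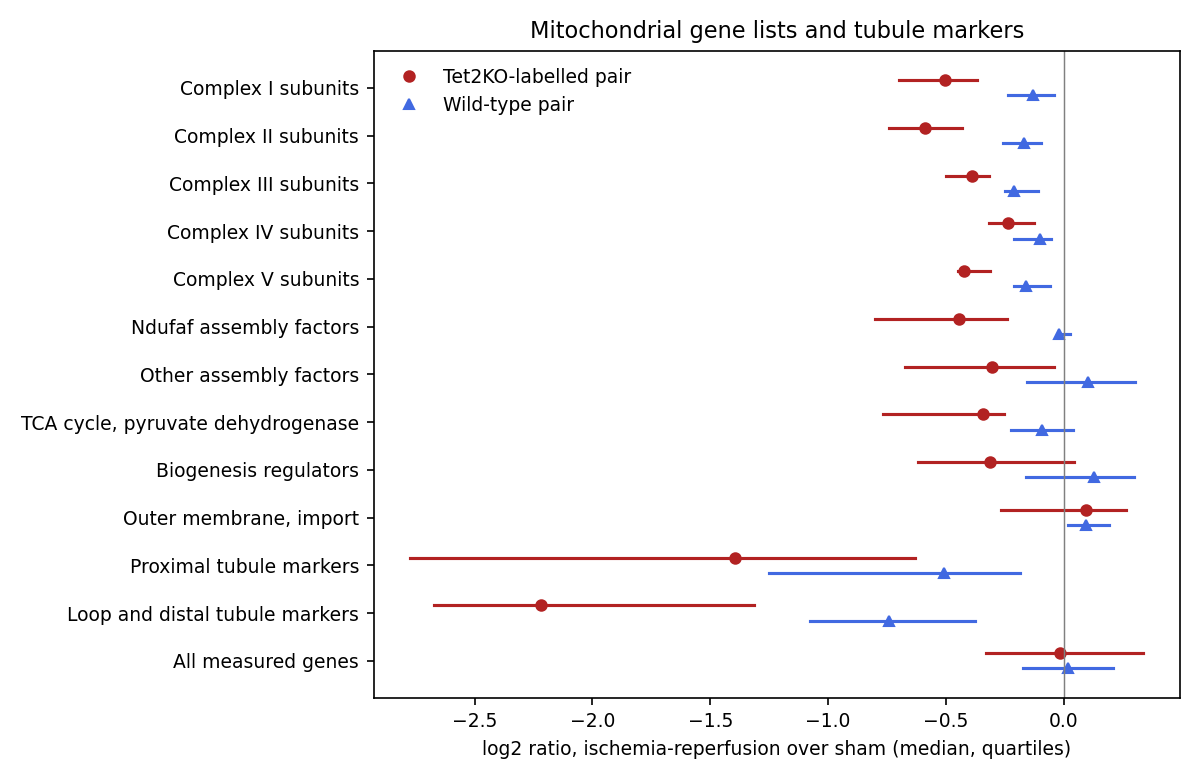
Median log2 ratio of ischemia-reperfusion over sham (horizontal axis) for the complexes, related lists and tubule markers (vertical axis), with bars over the range between the quartiles of each list, red circles for the knockout-labelled pair and blue triangles for the wild-type pair. The complexes lie between -0.24 and -0.59 in the knockout-labelled pair, the proximal tubule markers at -1.40 and all measured genes at -0.02.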

How the data were processed

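Whole-kidney RNA of 4 groups was measured on 1 Affymetrix array each, with RNA pooled from 3 mice per group. The deposited values are log2 signals, 1 column per array, read as log2 from the values; MAS5 is named per the submitters' processing notes, with no version or scaling given. The arrays' median log2 signals lay between 6.28 and 6.33.

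Probe sets were named from the array's annotation and checked against RefSeq, where all 179 member probe sets matched. Each gene was read from its probe set of highest mean signal, and a probe set with the suffix _x_at was used only where a gene had no other. The detection floor of 5.72 was set at the 40th percentile of the signals of the pooled arrays. The 5 comparisons are log2 ratios of arrays, described at 1.5-fold and 2-fold beside the same share of all measured genes; a fold against an array at the floor is a lower bound. No test was made, since pooling hides the spread between mice. The code was tested on simulated data. Genes named in the text are every member past 2-fold, the 3 lowest and 3 highest of each complex in the knockout-labelled pair, the tissue isoforms, the c-ring and catalytic subunits and members whose probe sets disagree by 1 or more; other genes illustrate the lists, and Ndufs5, Ndufs7, Ndufb4, Uqcrb and the further Ndufaf genes were named after their values were seen. The members and lists were chosen with earlier results of these data known. For each list the genes that matched a probe set were used. Computations used Python 3.11.15 with numpy 2.4.6, pandas 2.3.3 and matplotlib 3.10.9. The ratios were recomputed under 10 other settings (floor, probe set, scaling, sham array, members) and under 1 more chosen after the data were seen.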

Additional observations from a re-analysis of the deposited data

Results flagged for a closer look

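Cox8b, the heart, muscle and brown fat form of cytochrome oxidase subunit VIII, had opposite directions in the genotype labels: it was higher after ischemia-reperfusion in the knockout-labelled pair (log2 signals of 7.53 against 5.60) and lower in the wild-type pair (5.69 against 9.30). The response of the knockout-labelled pair minus that of the wild-type pair was at least 5.38 on the log2 scale. Each pair had 1 array per treatment, so the difference was not tested. The fat genes Adipoq, Cidea and Cidec were over the floor in the same arrays as Cox8b, and the other fat genes read were not. Ucp1 was over it in wild-type sham only (7.51), with 5.70 in knockout-labelled ischemia-reperfusion. Plin4, Retn and Ppargc1a were over it in every array, and Lep, Elovl3 and Dio2 in none. The summed linear signal of the brown fat list was lowest in knockout-labelled ischemia-reperfusion (1240) and highest in wild-type sham (3360). Ppargc1a, which kidney also expresses, made the largest part of that sum in every array. Its own log2 signal was lowest in knockout-labelled ischemia-reperfusion (9.98) and highest in wild-type sham (11.16), so the order of the sums is not a reading of brown fat alone. The part of the fat genes in this difference was not tested.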

How the results depend on the processing

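No paired analysis was possible because each group has 1 array. Each result is the median ratio of a complex or of all subunits, or a count of subunits at 1.5-fold or 2-fold, in the 5 comparisons, under 10 other settings and 1 chosen after the data were seen (the dimmest bright probe set). The medians of both pairs, of the ischemia-reperfusion arrays and of the difference of responses stayed below 0. The medians between the sham arrays, all close to 0, changed sign under 1 or more settings for every complex, with a range of -0.02 to 0.02 for all subunits. The subunit median stayed between -0.49 and -0.34 in the knockout-labelled pair and between -0.17 and -0.08 in the wild-type pair. Of the medians, one moved by more than the SD between probe sets: complex II between the sham arrays, -0.078 with the dimmest probe set over a mean log2 signal of 10. With floors at the 30th and 50th percentiles all 50 counts and medians stayed within their limits.

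The counts that moved are small. The counts higher at 1.5-fold and at 2-fold, which come from Cox8b, were 0 in the knockout-labelled pair, between the ischemia-reperfusion arrays and in the difference of responses with the dimmest probe sets, with only genes over the floor in all 4 arrays, and without Cox6a2, Cox7a1 and Cox8b; with the sham array of the other label they were 0 in the knockout-labelled pair. Between the sham arrays the count higher at 1.5-fold was 0 with the dimmest probe sets and 1 with the median over probe sets, with a pseudocount and without the 3 isoforms, and the counts lower at 1.5-fold and 2-fold were 0 with the dimmest probe sets, over the floor in all 4 arrays and without the 3 isoforms. In the wild-type pair the count higher at 1.5-fold was 2 with median centring and with plain _at probe sets and 0 with the dimmest, and at 2-fold it was 0 with the dimmest probe sets and with a pseudocount. Its count lower at 1.5-fold was 1 with the dimmest probe sets and over the floor in all 4 arrays, 4 of 62 with plain _at probe sets and 0 without the 3 isoforms, and at 2-fold it was 0 with the dimmest, 1 over the floor in all 4 arrays and with the other sham array, and 0 without the 3 isoforms. The count lower at 2-fold in the knockout-labelled pair was 4 with the other sham array and 1 without the 3 isoforms, and between the ischemia-reperfusion arrays it was 1 with median centring and with quantile normalization. In the difference of responses the count lower at 1.5-fold was 8 with quantile normalization, and at 2-fold 0 with plain _at probe sets. Where an alternative leaves genes out, fewer genes were counted; otherwise the cause was not tested. The largest shift of all genes by a scaling was 0.0512. Signals near the floor limit Cox8b, Cox4i2 and Ndufb4.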

Other observations

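Probe sets listed under several symbols were left out of all counts, and some of them read members from a brighter signal than the probe set used. Of 8 such probe sets, 2 read the Ndufb4 family (Ndufb4, Ndufb4b and Ndufb4c), an accessory subunit of the complex I membrane arm. They had log2 ratios of ischemia-reperfusion over sham of -0.82 and -0.94 in the knockout-labelled pair and of -0.18 and -0.27 in the wild-type pair. The bright probe set of Ndufs5 and its pseudogene had -0.51 in the knockout-labelled pair and -0.38 in the wild-type pair, and its sham arrays differed by 0.05. That of Ndufa11 and Ndufa11b had -0.61 in the knockout-labelled pair and -0.18 in the wild-type pair, and that of Ndufs6 and Ndufs6b had -0.40 in the knockout-labelled pair and -0.15 in the wild-type pair. All 8 were below 0 in both pairs. Signals of a gene and of its near copy cannot be told apart on these probe sets.

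Markers of other cell types were also read. The neutrophil markers had a median ratio of 0.36 over 6 measured genes in the knockout-labelled pair and 0.04 over 5 measured genes in the wild-type pair. Of these S100a8 had at least 4.31 and S100a9 3.85 in the knockout-labelled pair, and at least 1.23 and 0.99 in the wild-type pair. The other measured neutrophil markers lay between -0.35 and 0.42 in the knockout-labelled pair, and Camp was below 0 in both pairs. The 6 endothelial markers had a median ratio of -0.04 in the knockout-labelled pair and -1.25 in the wild-type pair, and 4 podocyte markers had 1.10 in the knockout-labelled pair and -1.12 in the wild-type pair. The 6 measured macrophage markers had a median of -0.84 in the knockout-labelled pair and -1.21 in the wild-type pair. Cd68 went the other way, with at least 2.16 in the knockout-labelled pair and at least 2.30 in the wild-type pair, and the others were below 0 in both.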
